A study of Mus musculus with 2 samples.

Results

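Imprinted genes, which are transcribed mainly from the copy inherited from 1 parent, were followed in Purkinje cells of the mouse cerebellum. The genes were taken from a list of 36 imprinted mouse genes, and 35 of them matched a row of the deposited gene tables by gene ID, out of 43346 mouse genes in all. Peg13, a paternally expressed noncoding RNA gene, had no matching row and was not analysed here. RNA came from 2 pools of 50 Purkinje cells each, lifted by laser capture from 8-month-old male wild-type C57Bl6 mice of strain B6NCrl. There was no treated, mutant or control group, so the 2 pools are replicates of 1 condition and every value below is a level in that condition. Both pools carry the same donor identifier, so they were not shown to come from separate animals and their spread may be technical. The tables held 23830685 expected counts in pool 1 and 27907662 in pool 2, and levels are given as TPM, a unit in which counts are corrected for transcript length and scaled to the same total in every sample. The mice were inbred and no alleles were counted, so none of these values says which parental copy was transcribed.

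Purkinje cells are the large inhibitory output neurons of the cerebellar cortex. The label was checked against 8 Purkinje markers, all of which were detected, with Pcp4 at 16756 TPM in pool 1 and 17167 TPM in pool 2 and Pcp2 at 6245 and 6524 TPM. Markers of Bergmann glia and astrocytes, whose cell bodies and fibres lie against Purkinje cells, summed to 2086 TPM in pool 1 and 1667 TPM in pool 2, all 8 of 8 being detected. Blood markers summed to 651 and 2274 TPM. Granule cell markers, 5 of 6 detected, summed to 106 and 136 TPM, and oligodendrocyte markers, 6 of 6 detected, to 124 and 109 TPM. All 6 molecular layer interneuron markers were detected. Pvalb alone had 6629 and 8173 of their 6676 and 8239 TPM, so the sum says little about the others. By mean TPM, Prkcd came next, at 9.83 TPM in pool 1 and 38.65 TPM in pool 2. Nxph1, at 16.4 and 11.2 TPM, and Kit, at 11.6 and 6.04 TPM, were above Prkcd in pool 1 and lower in pool 2. Microglia markers, 3 of 6 detected, summed to 16.5 and 26.4 TPM. The part of these other cells in the levels of imprinted genes was not tested, and in pooled RNA fewer expressing cells and less RNA per cell cannot be told apart.

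Imprinting is set by DNA methylation laid down at control regions in the egg or the sperm and kept after fertilisation, in part by the zinc finger protein ZFP57, which binds a methylated TGCCGC core. Most imprinted genes lie in clusters in which a long noncoding RNA and protein-coding genes are transcribed from opposite parental copies. Many act on fetal growth and placenta, and a large share are transcribed in the brain, where a few, such as Grb10 and Ube3a, are imprinted differently in neurons than in other cells.

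The promoter sequences below are those of genes with more than 1 start site or with a repeated ZFP57 core. For Gnas, Snrpn and Meg3, a pair of windows is given whose nearby starts held different shares of the gene's TPM. They are RefSeq windows of 300 bases on GRCm38.p6, from 250 before to 50 after a start, with each CG dinucleotide in capitals. For Gnas, the window of the Gs-alpha start (chr2:174329756-174330055, plus strand) is followed by that of the start farthest upstream (chr2:174284070-174284369, plus strand). For Snrpn, the downstream window (chr7:60005150-60005449, minus strand) is followed by an upstream one (chr7:60140176-60140475, minus strand). For Meg3, the window at the gene's first start (chr12:109540746-109541045, plus strand) is followed by an internal one (chr12:109545148-109545447, plus strand). Nap1l5 (chr6:58907077-58907376, minus strand) and Mest (chr6:30737800-30738099, plus strand) each hold the TGCCGC core 2 times, counting both strands.
Gnas, Gs-alpha start: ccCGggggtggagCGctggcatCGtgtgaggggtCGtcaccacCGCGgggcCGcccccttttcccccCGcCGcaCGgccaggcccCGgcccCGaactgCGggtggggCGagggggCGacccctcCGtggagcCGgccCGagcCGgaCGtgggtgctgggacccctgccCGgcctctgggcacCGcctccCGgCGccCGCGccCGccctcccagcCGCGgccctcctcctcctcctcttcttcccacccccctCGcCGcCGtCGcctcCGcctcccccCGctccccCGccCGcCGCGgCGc
Gnas, upstream start: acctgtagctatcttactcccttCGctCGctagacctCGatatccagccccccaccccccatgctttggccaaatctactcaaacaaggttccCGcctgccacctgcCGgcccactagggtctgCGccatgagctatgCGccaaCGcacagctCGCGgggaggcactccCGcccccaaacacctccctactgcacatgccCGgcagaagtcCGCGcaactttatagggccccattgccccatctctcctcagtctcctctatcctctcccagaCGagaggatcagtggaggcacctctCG
Snrpn, downstream start: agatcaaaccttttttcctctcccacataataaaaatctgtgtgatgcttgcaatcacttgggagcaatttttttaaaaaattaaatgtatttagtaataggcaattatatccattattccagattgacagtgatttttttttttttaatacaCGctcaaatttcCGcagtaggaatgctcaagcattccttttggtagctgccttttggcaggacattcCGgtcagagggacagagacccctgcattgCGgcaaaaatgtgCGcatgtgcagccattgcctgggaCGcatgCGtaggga
Snrpn, upstream start: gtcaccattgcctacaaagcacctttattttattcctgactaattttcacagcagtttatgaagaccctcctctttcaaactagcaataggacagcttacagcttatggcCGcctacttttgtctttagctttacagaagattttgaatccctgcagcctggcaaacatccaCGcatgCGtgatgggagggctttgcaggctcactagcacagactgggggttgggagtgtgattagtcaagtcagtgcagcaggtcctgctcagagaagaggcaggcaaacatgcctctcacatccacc
Meg3, first start: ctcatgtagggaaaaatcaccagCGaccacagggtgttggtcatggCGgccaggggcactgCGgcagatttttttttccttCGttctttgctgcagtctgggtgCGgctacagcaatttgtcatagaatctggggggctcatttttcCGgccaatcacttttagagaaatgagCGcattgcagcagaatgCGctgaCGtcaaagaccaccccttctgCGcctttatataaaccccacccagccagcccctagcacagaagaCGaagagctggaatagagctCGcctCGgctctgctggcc
Meg3, internal start: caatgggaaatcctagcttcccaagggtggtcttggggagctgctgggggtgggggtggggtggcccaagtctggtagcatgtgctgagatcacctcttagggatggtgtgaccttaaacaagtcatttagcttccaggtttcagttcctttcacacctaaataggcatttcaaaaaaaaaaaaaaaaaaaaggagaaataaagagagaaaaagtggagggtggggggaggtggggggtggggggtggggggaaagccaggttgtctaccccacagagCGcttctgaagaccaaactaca
Nap1l5: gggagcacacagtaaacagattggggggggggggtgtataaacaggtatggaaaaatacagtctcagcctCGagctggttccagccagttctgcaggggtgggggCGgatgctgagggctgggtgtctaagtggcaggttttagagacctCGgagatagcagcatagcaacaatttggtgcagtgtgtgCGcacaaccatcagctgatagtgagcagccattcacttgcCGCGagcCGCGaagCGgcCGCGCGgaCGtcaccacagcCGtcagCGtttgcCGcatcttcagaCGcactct
Mest: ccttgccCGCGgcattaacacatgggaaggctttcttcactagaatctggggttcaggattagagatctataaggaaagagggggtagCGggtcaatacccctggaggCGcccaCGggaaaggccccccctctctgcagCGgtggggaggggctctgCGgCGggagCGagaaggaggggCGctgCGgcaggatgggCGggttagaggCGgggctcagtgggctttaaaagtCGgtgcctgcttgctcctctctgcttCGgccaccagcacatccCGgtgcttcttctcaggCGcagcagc

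The Gs-alpha window of Gnas held 40 CG dinucleotides, a number that 3.91% of all RefSeq windows reach, and its upstream window held 16. The downstream Snrpn window held 7 and the upstream one 3. The first Meg3 window held 13 and the internal one 1, and Nap1l5 and Mest held 17 each. Windows were at hand for 28 of the 36 listed genes, 43 windows in all, and their median was 14 CG dinucleotides, against 7 over all 32851 windows of the table. The letters TGCCGC occurred on either strand of 12 member windows, which is 27.9% and covers 11 genes, against 11.6% of all windows. The Mest windows that begin at chr6:30737800 and chr6:30737803 overlap and both count among the 12. These letters hold a CG, and no share was taken among windows with a like number of CG dinucleotides. The part of CG content in the difference was not tested. In the 250 bases before the start alone, 7 of the 43 member windows held the letters, and the share over all windows was 8.68%. A match of these letters is a description of the sequence and not a bound site.

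Of the 35 genes, 24 were detected, meaning that each pool had 1 TPM or more. That is 68.6% of them, while 28.8% of all mouse genes passed the same threshold. The list was chosen with earlier results of these data known, and the part of that choice in the share was not tested. Among protein-coding genes alone the shares were 65.5% of imprinted ones (19 of 29) and 51.7% of all. Their levels ran over a wide range: 16 genes reached 10 TPM in both pools and 6 reached 100 TPM, a level that 2.93% of all genes reached. The 35 genes summed to 1777 TPM in pool 1 and 1715 TPM in pool 2, a mean of 1746 ± 44.1 TPM (SD, n = 2). The 5 genes with the highest mean TPM over the pools held 68.6% of that sum in pool 1 and 68.8% in pool 2. The median detected gene of the list stood at 28.8 TPM in pool 1 and 21.6 TPM in pool 2, against 11.1 and 10.2 TPM for all detected genes. The order of levels was almost the same in both pools (Spearman's rho of 0.99 across the 35 genes, which share the libraries and are not replicates).

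**Figure D1:**
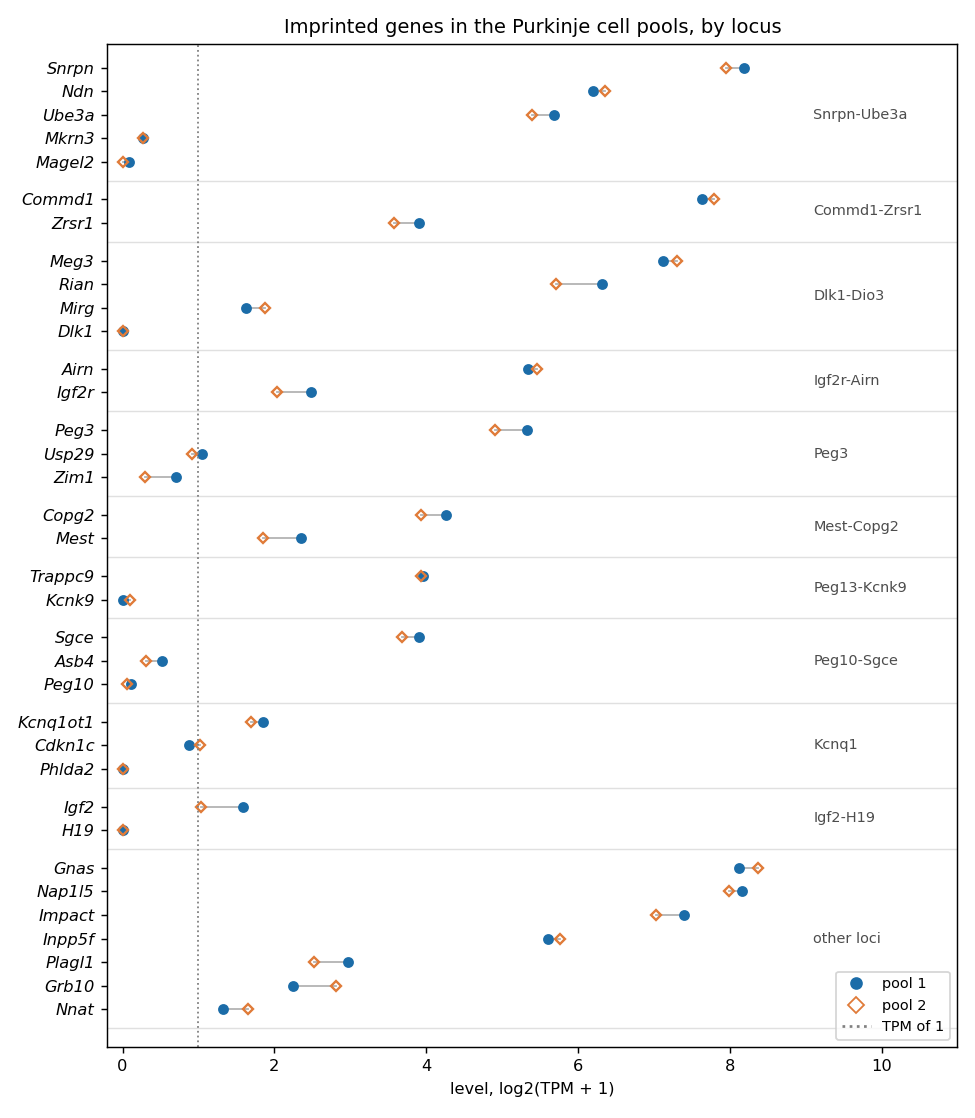
Level of each of the 35 imprinted genes as log2(TPM + 1) in pool 1 (filled circles) and pool 2 (open diamonds), grouped by locus, with a dotted line at a TPM of 1. Snrpn, Gnas, Nap1l5 and Commd1 lie farthest to the right, and Dlk1, H19 and Phlda2 sit at 0 in both pools.

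Of the 7 long noncoding RNAs on the list, 6 were in the tables and 5 were detected. Meg3, a maternally expressed nuclear RNA, had 139 TPM in pool 1 and 158 TPM in pool 2, and its 19837 and 27943 expected counts were the most of any listed gene. Rian, the maternally expressed host of small nucleolar RNAs in the same cluster, had 79.1 TPM in pool 1 and 51.5 TPM in pool 2. These RNAs were thus among the better detected transcripts of the pools, at ranks 959 and 1922 of all 43346 genes by mean TPM. Mirg, the microRNA host at the far end of that cluster, was lower, at 2.09 and 2.68 TPM. Airn, the paternally expressed RNA that silences Igf2r in cis in most mouse tissues, had 39.7 TPM in pool 1 and 43.0 TPM in pool 2. Kcnq1ot1, the paternally expressed silencer of the Cdkn1c domain, had 2.61 and 2.23 TPM. Its model is 84395 nucleotides long, so this low TPM rests on 4373 expected counts in pool 1 and 4721 in pool 2. H19, the maternally expressed RNA abundant in fetal tissues, had no count in either pool, which allows at most 0.129 TPM in pool 1 and 0.102 TPM in pool 2, counting error only.

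Genes acting in RNA processing and transcription were led by Snrpn, which encodes the spliceosomal SmN protein of neurons, with 289 TPM in pool 1 and 246 TPM in pool 2. Zrsr1, a retrogene for a splice-site recognition factor, had 14.0 and 10.9 TPM. Peg3, a zinc finger protein, had 39.3 TPM in pool 1 and 29.0 TPM in pool 2. Plagl1, a zinc finger transcription factor that restrains growth, had 6.85 and 4.72 TPM. Each of these 4 paternally expressed genes was higher in pool 1, by no more than 0.46 on the log2(TPM + 1) scale. Zim1, the maternally expressed zinc finger neighbour of Peg3, was below the threshold, with 43 and 18 expected counts (0.63 and 0.23 TPM).

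In the group of ubiquitin-linked and MAGE family genes, 3 of 7 were detected. Commd1, which acts in copper handling and protein trafficking, had 198 TPM in pool 1 and 221 TPM in pool 2. Ndn, the MAGE protein necdin of postmitotic neurons, had 72.65 and 81.1 TPM. Ube3a, the ubiquitin ligase lost in human Angelman syndrome, had 50.2 TPM in pool 1 and 41.25 TPM in pool 2. The other 4 were below 1 TPM in at least 1 pool. Usp29, a deubiquitinase gene that shares a promoter region with Peg3, had 53 and 56 expected counts (1.06 and 0.89 TPM), which puts it on the threshold. Asb4, a substrate adaptor of ubiquitin ligases, had 28 and 19 counts. Mkrn3, a ring finger protein, had 10 and 13 counts, and Magel2, a MAGE protein known from the hypothalamus, had 5 and 0 counts.

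Membrane, transport and signalling genes passed in 7 of 8 cases. Gnas, which encodes the G protein subunit that couples receptors to adenylyl cyclase, had 278.5 TPM in pool 1 and 331 TPM in pool 2, the highest mean of the list at rank 437 of all genes. Inpp5f, a phosphoinositide phosphatase, had 47.5 and 53.4 TPM. Copg2, a subunit of the coat of transport vesicles, had 18.2 and 14.2 TPM, and Trappc9, a subunit of a vesicle tethering complex, had 14.6 and 14.2 TPM. Sgce, the epsilon-sarcoglycan gene mutated in human myoclonus-dystonia, had 14.0 TPM in pool 1 and 11.8 TPM in pool 2. These 5 were above 10 TPM in both pools, and the remaining detected pair was lower. Mest, an enzyme of the alpha/beta hydrolase fold, had 4.09 and 2.59 TPM. Nnat, a small endoplasmic reticulum protein abundant in developing brain, had 1.5 TPM in pool 1 and 2.14 TPM in pool 2, from 37 and 59 counts. Kcnk9, the TASK-3 potassium channel, was not detected, with 0 and 2 counts.

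Genes that set growth were the lowest group, with a sum of 11.2 TPM in each pool over 6 genes, 3 of them detected. Grb10, an inhibitor of insulin receptor signalling, had 3.76 TPM in pool 1 and 6.02 TPM in pool 2, from 104 and 161 counts. Igf2r, the receptor that clears the growth factor Igf2, had 4.59 and 3.09 TPM. Igf2 itself had 2.00 TPM in pool 1 and 1.05 TPM in pool 2, from 43 and 29 counts. Igf2 is known in brain from choroid plexus, meninges and vessels, so markers of those cells were read beside it. None of 6 choroid plexus and ependyma markers reached the threshold in both pools. Kcnj13 had 1.14 TPM in pool 1 and 0.51 TPM in pool 2, and Otx2 had 0.03 and 0.83 TPM. Ttr and Folr1 were at 0 in both pools. Meningeal fibroblast markers were detected in 5 of 6 cases, led by Dcn at 9.08 TPM in pool 1 and 6.07 TPM in pool 2, and endothelial and pericyte markers in 6 of 6, with sums of 108 and 136 TPM. The part of any of these cells in the Igf2 level was not tested. Cdkn1c, a cyclin-dependent kinase inhibitor, was just under the threshold with 30 and 46 counts (0.84 and 1.02 TPM). Dlk1, a Notch-like ligand, and Phlda2, which limits placental growth, had no count in either pool, which allows at most 0.0790 and 0.0623 TPM for Dlk1 and 0.230 and 0.181 TPM for Phlda2.

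The remaining genes were a pair at high level and 1 near 0. Nap1l5, a brain gene of the nucleosome assembly protein family, had 284 TPM in pool 1 and 252 TPM in pool 2. Impact, which restrains the amino acid sensor kinase GCN2, had 168 and 129.65 TPM. Peg10, a gene derived from a retrotransposon and needed in placenta, had 5 counts in each pool, and so fell far below its neighbour Sgce, whose start lies next to its own.

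By the parental copy that is known to be transcribed elsewhere, 13 of 18 paternally expressed genes in the tables were detected, with a sum of 940 TPM in pool 1 and 817 TPM in pool 2. Of the 10 maternally expressed genes, 4 were detected (Meg3, Rian, Mirg and Igf2r), summing to 226 and 216 TPM. All 7 genes whose imprint depends on tissue or transcript, or is only a bias, were detected, with sums of 610 TPM in pool 1 and 681 TPM in pool 2. Meg3 and Rian made up nearly all of the maternal sum. Over all mouse genes 28.8% were detected, and 51.7% of the protein-coding ones. With so few genes in each class, the difference in detection between the classes was not tested.

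Neighbours within a cluster differed widely. In the Dlk1-Dio3 cluster on chromosome 12, the RNA genes of the maternal copy, Meg3 and Rian, were abundant, whereas the 3 protein-coding genes of the paternal copy were not: Dlk1 was at 0, Rtl1, a retrotransposon-derived gene, had 0.21 and 0.37 TPM, and Dio3, a thyroid hormone deiodinase, had 0 and 1 counts. In the Snrpn-Ube3a cluster on chromosome 7, Snrpn, Ndn and Ube3a were detected and Magel2 and Mkrn3 were not, although Magel2 and Mkrn3 lie next to Ndn. Snhg14, the long RNA that runs from the Snrpn region across Ube3a in antisense, had 138 TPM in pool 1 and 114 TPM in pool 2. Its exons share 1803 bases with Ube3a on the opposite strand, and no source used here states the strand setting of the counting, so the reads of this pair cannot be told apart there. Snurf, which shares the Snrpn transcript and 216 exon bases on the same strand, had 206 and 182 TPM, a split between the 2 genes that rests on the authors' estimation. At Igf2r and Airn, the noncoding RNA was higher than the coding gene in TPM in both pools, and no exon bases were shared. By expected counts Igf2r was higher in pool 1, at 705 against 523 for Airn, and lower in pool 2, at 574 against 708. The Airn models are the shorter ones, so Airn has more TPM per count in both pools. All of them are spliced forms of 435 to 1375 nucleotides, so the level of unspliced Airn was not measured. At Mest and Copg2, whose 3′ ends overlap by 912 exon bases on opposite strands, Copg2 was the higher one in both pools. At Commd1 and Zrsr1, which sits in a Commd1 intron and shares 412 exon bases with it on the opposite strand, the host gene was higher.

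**Figure D2:**
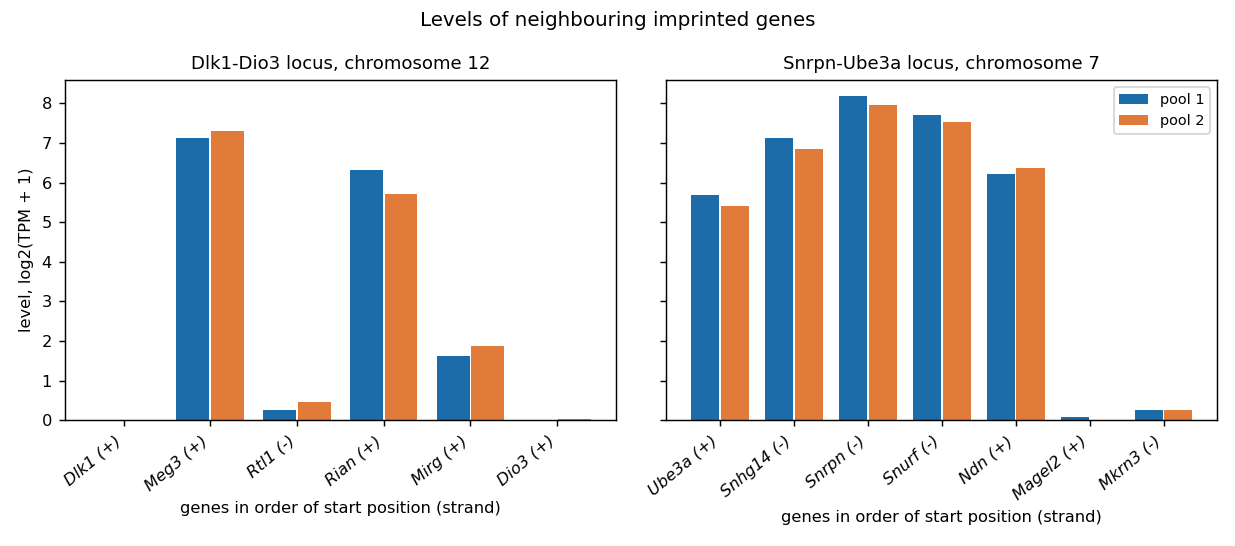
Levels as log2(TPM + 1) in pool 1 (left bar) and pool 2 (right bar) for neighbouring imprinted genes in order along the chromosome, with the strand in brackets. Meg3 and Rian stand between low neighbours in the Dlk1-Dio3 locus, and Ndn is high beside Magel2 and Mkrn3, which are near 0.

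Several of these genes have alternative promoters whose imprints differ, so the deposited transcript percentages were summed over starts lying within 1000 bases of each other. The starts used here are those of GENCODE M21 on GRCm38. In Gnas, the starts at chr2:174330006-174330287, which make the Gs-alpha transcripts, held 92.2% of the gene's TPM in pool 1 and 91.1% in pool 2. The start group at exon 1A, chr2:174327570-174328023, held 7.30 and 8.71%. The start groups farther upstream, where the Nesp and XL transcripts of endocrine and neural cells begin, comprised 5 transcripts at chr2:174284320-174285358 and 7 at chr2:174297859, and all 12 were listed at 0 counts in both pools. The upstream Gnas sequence printed above therefore belongs to a start with no assigned reads. Gm20721, an antisense model, shares 1469 exon bases with Gnas and had 69.7 and 62.6 TPM.

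Snrpn was transcribed almost wholly from its downstream start, with 98.7% of TPM in pool 1 and 99.1% in pool 2, and the upstream start at chr7:60140219 held 1.26 and 0.93%. In Inpp5f, the internal starts at chr7:128687546-128688489 held 64.05% in pool 1 and 64.4% in pool 2. The start of the full-length gene held 33.8 and 33.1%. An internal start is known to make the paternally expressed variant in mouse brain. Most of the internal share lay on Inpp5f-208, which starts at chr7:128687546 and held 61.1% in pool 1 and 62.4% in pool 2. Whether this model is that variant, or a fragment of a longer RNA, was not tested. In Commd1, the starts at the gene's beginning held 70.2 and 68.8%, and Commd1-205, a model starting within the gene, held 28.7 and 30.1%.

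Meg3 had 4 start groups, and the first of them, beside the first printed window, held 21.5% of TPM in pool 1 and 18.9% in pool 2. The second held 29.9 and 29.2%, and the third, from chr12:109544498 to chr12:109546445, held 47.7 and 51.4%. By expected counts the third held more, 71.3 and 71.7%, because it includes Meg3-209, a model of 14548 nucleotides. The internal printed window with 1 CG dinucleotide lies beside the start of Meg3-209. Nothing in these data shows whether such a model has a start of its own or is a fragment of a longer RNA.

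Mest and Grb10 were lower and their shares rest on few counts. The Mest starts beside the printed window held 48.6% of TPM in pool 1 and 49.8% in pool 2, or 81.1 and 81.9% of expected counts, and the 3 start groups upstream of it were at 0. In Grb10, the starts at chr11:12026324-12026732 held 72.7% in pool 1 and 85.25% in pool 2, from 22.7 and 55.4 expected counts. The start at chr11:12037401, whose CG-rich window holds 45 CG dinucleotides, had 14.2 and 6.40% of TPM, from 52.5 and 48.1 expected counts. By counts its share was 50.5% in pool 1 and 29.9% in pool 2, so which Grb10 start led in pool 1 depended on the unit. Igf2 was assigned mostly to Igf2-208, a model that starts at chr7:142653030, downstream of all other Igf2 starts, with 83.2 and 80.9% of its TPM.

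**Figure D3:**
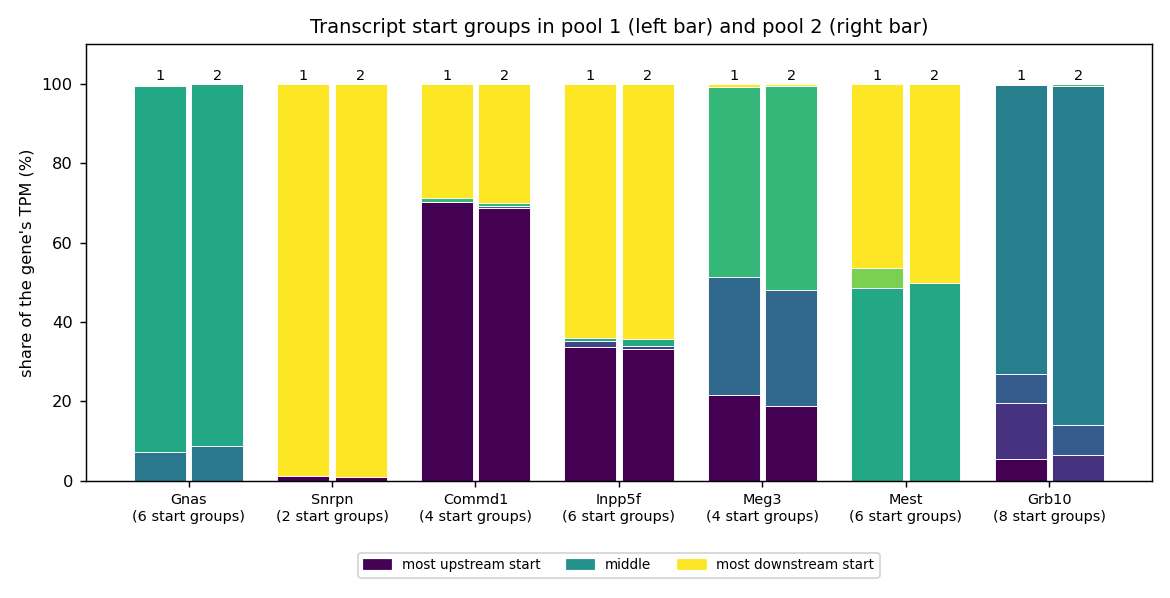
Share of each gene's TPM (percent) by group of transcript starts, stacked from the most upstream (dark) to the most downstream (yellow), in pool 1 (left bar) and pool 2 (right bar). Snrpn is almost wholly on its downstream start, Gnas on a middle start, and the bars of Grb10 differ most between the pools.

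Among the 12 genes with a mean of at least 5 TPM and more than 1 transcript, 10 had the same leading transcript in both pools, and the exceptions were Copg2 and Trappc9. The leader held over 50% in 7 of the 12. Peg3-201, the full Peg3 messenger, held 88.1% in pool 1 and 90.5% in pool 2, and Plagl1-202 held 86.4 and 88.0%. Gnas-208 and Gnas-206, both with the Gs-alpha start, were the only ones of 24 Gnas transcripts with a mean of at least 5%, at 151 and 104 TPM in pool 1 and 189 and 109 TPM in pool 2. Airn-204, a spliced form of an RNA that is mostly unspliced, held 61.8 and 57.0%. Rian was the most divided, with 6 of 19 transcripts at 5% or more and Rian-209 leading at 22.5 and 28.1%. Copg2-205, a model of 215 nucleotides, led Copg2 in pool 2 at 55.5% of TPM from 23 counts, against 37.3% in pool 1, whereas Copg2-201, the full messenger, held 88.1% of the counts over both pools.

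The levels of 19 imprinted genes were next set against those of listed relatives. Not all relatives are transcribed from both parental copies: Nap1l4 is itself on the list of other imprinted genes, and Zrsr2, Nap1l2, Nap1l3, Usp26 and the relatives of Magel2 lie on the X chromosome, of which male mice have a single copy. Ndn was not placed in the Magel2 family or in any other. Of the 19 families, 16 summed to at least 5 TPM, and the imprinted gene held over 50% in 5 of these and under 10% in 6. Gnas held 90.9 ± 1.32% (SD, n = 2) of the sum with Gnal, the related subunit of olfactory and striatal neurons. Plagl1 held 76.6 ± 2.08% of its family, Ube3a 73.2 ± 2.87% of the sum with Ube3b and Ube3c, and Snrpn 71.0 ± 4.92% of the sum with Snrpb, the general SmB gene. Nap1l5 held 61.1 ± 0.678% of 5 nucleosome assembly genes. By expected counts, which are not corrected for length, these shares had a mean of 75.1% for Gnas, 80.9% for Snrpn and 55.9% for Nap1l5. Inpp5f led its family by mean TPM at 40.1 ± 7.32%, but in pool 1 its 47.5 TPM stood close to the 45.8 TPM of Sacm1l. By counts Inpp5f was the lowest of its family in pool 1, at 2806 against 3030 for Sacm1l and 2954 for Synj1. The imprinted gene thus held most of the family in the first 5 of these families, in either unit.

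Elsewhere the relative was higher. Copg2 held 12.3 ± 1.88% beside Copg1 at 116 TPM in both pools, and Cdkn1c held 0.826 ± 0.0760% beside Cdkn1a and Cdkn1b. Mkrn3 held 0.216 ± 0.0121% of a family led by Mkrn1 at 80.6 and 74.2 TPM. Magel2 held 0.0317% in pool 1 and 0% in pool 2 of a family led by Maged1 at 116 and 118 TPM. Igf2 held 5.95 ± 0.401% beside Igf1, or 1.32% by counts. Grb10 held 25.6 ± 6.27% beside Grb14, which led at 13.2 TPM in pool 1 and 12.5 TPM in pool 2. Zrsr1 held 35.1 ± 7.19% by TPM beside Zrsr2, but 60.4% by counts, because its model is the longer one. Sgce held 33.5 ± 2.36% among 6 sarcoglycans, in which Sgcb led at 24.4 and 16.65 TPM, and 18.6% by counts.

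**Figure D4:**
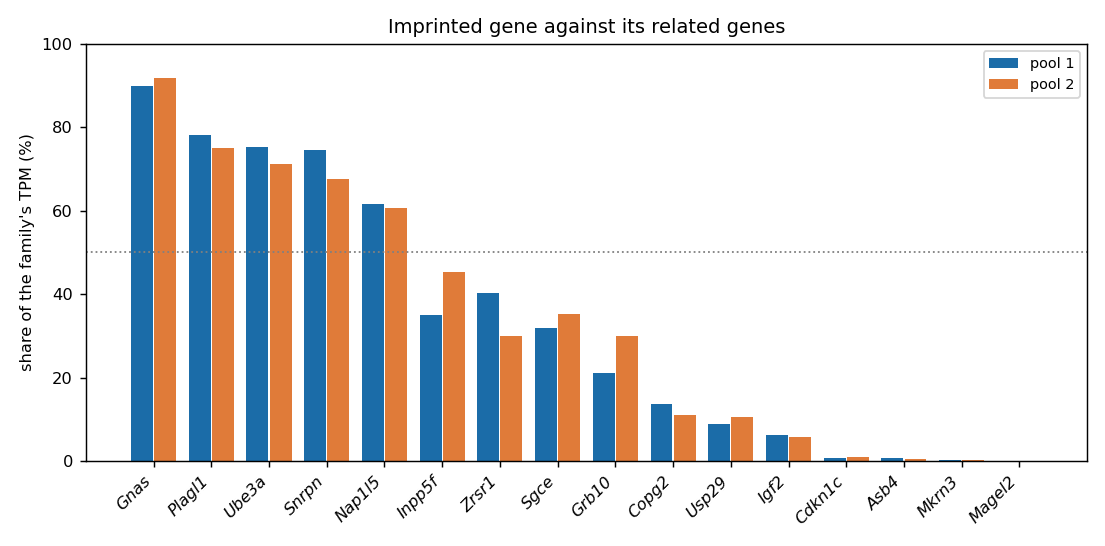
Share of the imprinted gene in the summed TPM of its family (percent) in pool 1 (left bar) and pool 2 (right bar) for the 16 families that sum to at least 5 TPM, with a dotted line at 50%. Gnas, Plagl1, Ube3a, Snrpn and Nap1l5 stand above the line in both pools.

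Over the 24 genes with a mean TPM of at least 1, none was 2-fold apart on the log2(TPM + 1) scale, where 2.79% of all 13210 such genes were, so that 0 of 24 is near the background. The median size of the difference, without its sign, was 0.26 over the 24 genes and 0.23 over all. The median difference, pool 1 minus pool 2, was 0.20, against 0.07 over all genes, and 15 genes were higher in pool 1 and 9 in pool 2. The share higher in pool 1 was 62.5% of these genes and 58.4% of all. On this scale, which shrinks the differences of low genes, the largest was that of Rian, 0.61. As plain ratios of TPM, pool 1 over pool 2, Igf2 at 1.90 and Mest at 1.58 lay above Rian at 1.54. The Rian exact Poisson intervals (95%, counting error only) were 76.3 to 81.9 TPM in pool 1 and 49.6 to 53.5 TPM in pool 2. Grb10 had the largest difference in the other direction, -0.56 or a ratio of 0.625, with intervals of 3.07 to 4.56 TPM in pool 1 and 5.13 to 7.03 TPM in pool 2. Intervals that lie apart are not particular to Rian and Grb10. Those of Gnas lay apart too, at 273 to 284 TPM in pool 1 and 326 to 337 TPM in pool 2. The intervals of Igf2, a gene of few counts, overlapped, at 1.45 to 2.69 and 0.703 to 1.51 TPM. The share of all genes with intervals apart was not counted. With 1 pair of pools, no test of any of these differences was possible. Among genes at a mean of 10 TPM or more, the SD of the difference over all genes was 0.34, and 13 of 16 imprinted genes lay within it, as did 73.1% of all genes. Between 1 and 10 TPM the SD was 0.53, and 6 of 8 lay within it, as did 81.0% of all genes.

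The differences moved with transcript length, in these genes as in all. Below 2000 nucleotides the median difference was -0.11 over 13 imprinted genes and -0.05 over all genes. From 2000 to 4000 nucleotides it was 0.33 over 5 imprinted genes and 0.13 over all, and above 4000 it was 0.35 over 6 and 0.25 over all. Meg3, at -0.18, was the 1 imprinted gene longer than 4000 nucleotides that was higher in pool 2. The part of length in the differences was not tested. Spike-in RNAs, added as a fixed amount, had a median difference of 0.66 over 51 spikes. On their scale the median of all genes moved to -0.59 and that of the imprinted genes to -0.46. All 24 were lower in pool 1 once the spike median was subtracted from the differences in log2(TPM + 1), which are shrunk in low genes. For Igf2 and Mest, low genes with plain ratios of 1.90 and 1.58, that sign may rest on the added 1. The direction of the small differences thus holds only relative to the total.

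**Figure D5:**
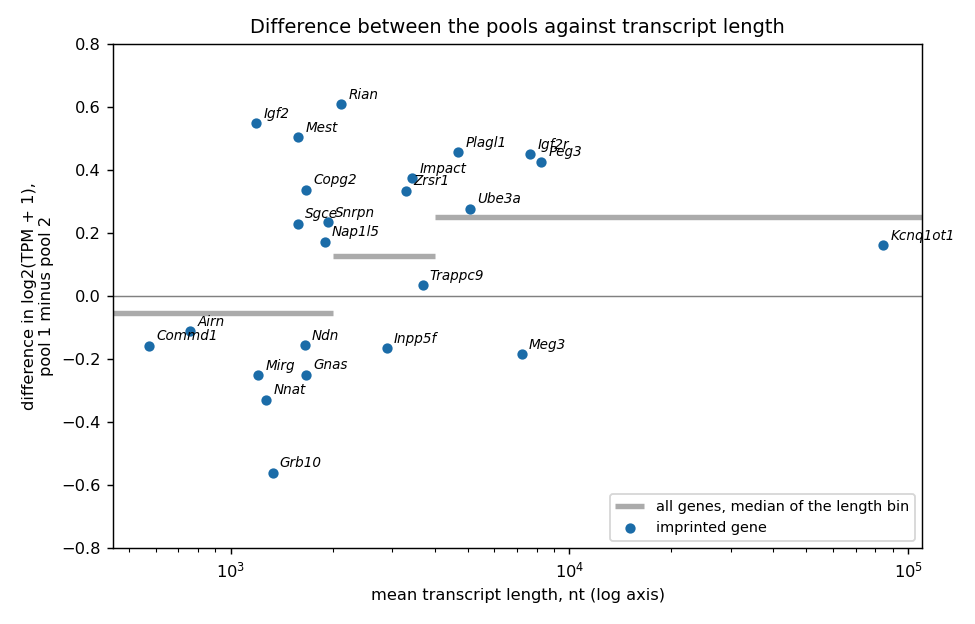
Difference in log2(TPM + 1), pool 1 minus pool 2, of the 24 imprinted genes with a mean TPM of at least 1, against mean transcript length in nucleotides on a log axis, with grey bars for the median of all genes in 3 length bins. Rian lies highest and Grb10 lowest, and most genes above 2000 nucleotides lie above 0.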

How the data were processed

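Gene and transcript tables were used for both pools. Per the file headers, the deposited columns hold the authors' expected counts (estimated reads, not always whole) and TPM, and the transcript tables also hold the authors' percent of each transcript in its gene. Per the deposited notes, the files use mm10 with GENCODE M4. The aligner, the quantifier, their settings and the use of strand are not stated in any source used here. A Smart-seq protocol is linked in the labels of pool 2 but not of pool 1, and the labels name RNA over 200 nucleotides and spike-ins.

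Gene IDs were matched without their version to GENCODE M21, which gave names to 42462 of 43346 mouse genes and all coordinates. Deposited TPM was used unchanged, over 69691 entries that include 97 spike-ins. Detection required 1 TPM or more in each pool. Differences between pools are log2(TPM + 1), pool 1 minus pool 2, for genes with a mean TPM of at least 1. With 1 group and 2 pools there was no test between conditions. Exact Poisson intervals (95%) and the limit of 3 counts that a count of 0 allows cover counting error only. Alternative scalings of the pool difference used edgeR 4.0.16 (TMM) and DESeq2 1.42.0 (size factors) on expected counts rounded to whole numbers, and these were tested on simulated data. R 4.3.3 and Python 3.11.15 were used, with scipy 1.17.1 for the intervals, pandas 2.3.3 and numpy 2.4.6 for the tables and matplotlib 3.10.9 for the plots.

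Promoter windows come from RefSeq. CG was counted, and TGCCGC was searched on both strands. The listed genes and all comparison lists were chosen with earlier results of these data known. Listed genes detected in both pools are named with values and the others with counts, and in each comparison list the 4 genes with the highest mean TPM could be named. Transcripts could be named from a mean share of 5% in genes with a mean of at least 5 TPM. Other genes, starts and transcripts were named for their position or chosen after their values were seen.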

Additional observations from a re-analysis of the deposited data

How the results depend on the processing

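The count of detected genes was 26 at a TPM threshold of 0.5 or a threshold of 1 CPM, 16 at a threshold of 5, and 25 with either pool left out. The summed level was 3897 as CPM (expected counts scaled to the library total), a unit without length correction in which long RNAs weigh more, and 1715 to 1777 TPM with 1 pool left out. The median difference between the pools, 0.20, was 0.14 under edgeR's TMM, 0.15 under DESeq2's size factors, 0.14 with no filter and 0.23 at a mean of at least 5 TPM. It turned to -0.46 with spike-ins as the scale, on which Grb10 became the 1 gene at least 2-fold apart and 11.7% of all genes were so. Windows with the TGCCGC core numbered 7 in place of 12 without the 50 bases after the start. The imprinted gene held over 50% in 5 families with either pool left out and in 6 by expected counts, the added one being Zrsr1, and 10 of 16 shares moved beyond the spread between pools by counts. A leading transcript held over 50% in 7 genes with pool 2 left out, in 9 with pool 1 left out and in 10 by expected counts. No paired analysis was possible because the study has 1 group and no contrast.

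Overlapping gene models on opposite strands limit Ube3a, Gnas, Commd1, Zrsr1, Mest and Copg2, since no source used here states the strand setting. Snrpn shares exon bases with Snurf and Gm38393 on its own strand, which no strand setting would separate. Gm38393, which shares 589 exon bases with Snrpn on the same strand, had 19.4 TPM in pool 1 and 10.75 TPM in pool 2. Shares of short models and of genes with under 200 counts, such as Grb10, Mest and Igf2, rest on few reads.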

Other observations

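Beyond the listed genes, 18 of 39 other imprinted genes in the tables were detected and 4 had no count in either pool. Of all mouse genes 28.8% were detected, and of the protein-coding ones 51.7%. Cd81, a tetraspanin gene of the Kcnq1 domain whose imprint is known from mouse placenta, was the highest, with 797 TPM in pool 1 and 887 TPM in pool 2. Snurf and Snhg14 followed, and Chrac1, a chromatin remodelling subunit next to Trappc9, had 81.6 and 74.45 TPM.

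Of 16 factors known to keep or read imprints, 13 were detected, beside 51.7% of all protein-coding genes. Like the imprinted genes, these factors were chosen with earlier results of these data known. Atrx, a chromatin remodeller, had 118 TPM in pool 1 and 94.0 TPM in pool 2, and Trim28, the corepressor that zinc finger proteins recruit, had 68.55 and 62.2 TPM. Cbx5, which binds methylated histone H3, had 54.6 and 47.7 TPM, and Arid4a, a chromatin regulator at the Snrpn imprint, had 30.8 and 36.75 TPM. Zfp57, which binds the methylated TGCCGC core, had 4 counts in pool 1 and 5 counts in pool 2 and was below the threshold, whereas Zfp445, a zinc finger protein also known to keep imprints, had 8.06 and 4.82 TPM. Dnmt1, the maintenance DNA methyltransferase, had 2.99 TPM in pool 1 and 3.12 TPM in pool 2.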
